A study of Arabidopsis thaliana with 2 samples.

Results

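The genes described here are 10 markers of sulfur deficiency in Arabidopsis thaliana, chosen by gene identifier out of the 33565 rows of the deposited table. They are LSU1 to LSU4, SDI1, SDI2, the beta-glucosidase genes BGLU28 and BGLU30, GGCT2;1 and SHM7. RNA sequencing compared shoots of wn1, a mutant in the Col-0 background that the labels describe only as whitening, with shoots of wild-type Col-0. Plants of both genotypes were harvested at an age of 7 days from solid half-strength MS medium kept at 22 °C in days of 16 h light and 8 h dark. The labels give shoot and cotyledon as tissue. No treatment was applied. The labels used here name neither the altered gene nor the allele of wn1. There was 1 library of each genotype, so no difference has a replicate check, no test was made and no p-value is given.

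Plants take up sulfate, reduce it in plastids and join it to O-acetylserine to make cysteine, from which methionine and glutathione follow. When sulfur runs short, O-acetylserine accumulates and a compact group of genes, among them LSU1, SDI1, SDI2, GGCT2;1, SHM7 and the reductase gene APR3, is strongly induced, in part through the transcription factor EIL3, also called SLIM1. The group is known for opposing sulfur use in glucosinolates, the sulfur-rich defence compounds of this plant family, and for recovering sulfur from them and from glutathione. High transcript levels of these genes are therefore widely used as a sign of sulfur deficiency, and they are low in plants well supplied with sulfur.

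The values are FPKM, a fragment count corrected for transcript length and for the mapped total, as the authors deposited them. Differences are log2((wn1 + 1)/(wild type + 1)), and this scale understates differences of genes with low FPKM. A gene was called measured when its FPKM averaged 1 or more over both libraries, as 18788 genes did, all 10 markers among them. Across the measured genes the median log2 difference was 0.03, with quartiles of -0.25 and 0.31. When both columns were brought to the same total, the median of all genes moved to -0.85, since 1 transfer RNA row held 54.1% of the summed FPKM of wn1 and was listed at 0 in wild type. Counts and signs that this alternative alters are given beside the values for markers and listed genes. For neighbours of the markers only counts are given. With columns brought to the same total, 6864 of the 18788 measured genes were at least 2-fold lower in wn1 and 99 at least 2-fold higher. Depth, estimated from the spacing of low FPKM values, was about 15900000 fragments for wn1 and 12800000 for wild type.

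Of the 10 markers, 8 were at least 2-fold lower in wn1, none was at least 2-fold higher, and 2 lay within 2-fold. Of all measured genes, 3.65% were at least 2-fold lower in wn1 and 3.67% at least 2-fold higher, together 7.32%. The markers were chosen for these values, so the counts describe the choice and nothing is read from the comparison with all genes. All these folds were taken on FPKM + 1, the scale of the log2 differences. There those 8 genes also passed 4-fold, while 5 of them passed 8-fold and 3 of them 16-fold. LSU4 and BGLU30 were the exceptions on that scale, and LSU4 was at -1.19 with columns brought to the same total. Without the added 1, more genes pass some of these limits. Wild type then stood 27.8-fold above wn1 for GGCT2;1, 9.42-fold for LSU3 and 2.44-fold for LSU4. The median log2 difference of the markers was -2.88, and their FPKM added up to 36.5 in wn1, against 328.8 in wild type.

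**Figure D1:**
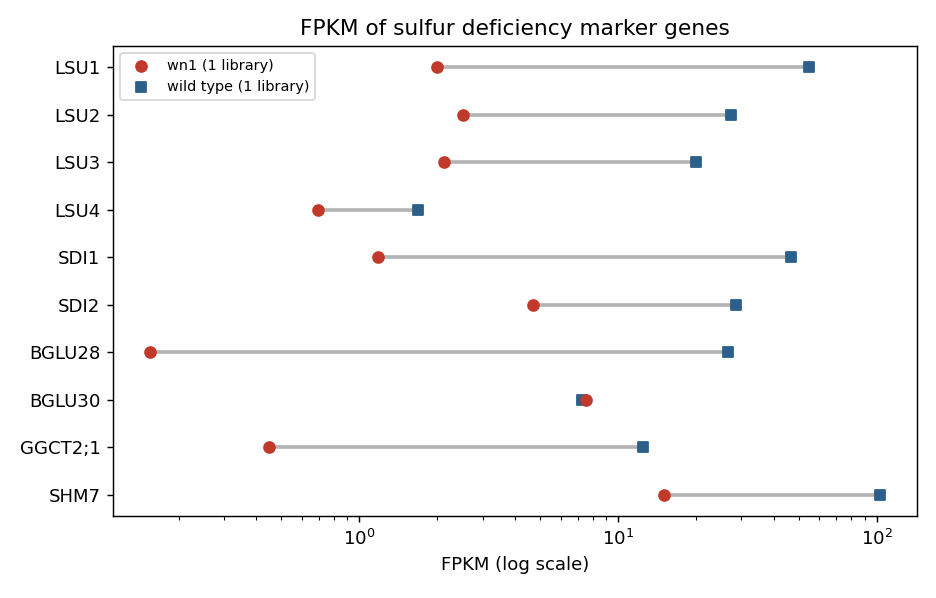
FPKM on a log axis of the 10 sulfur deficiency markers, with a circle for the wn1 library and a square for the wild-type library. For 8 genes the circle lies far left of the square, from 0.155 against 26.7 FPKM in BGLU28 to 15.1 against 103 FPKM in SHM7, while the symbols of BGLU30 nearly coincide.

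LSU1 to LSU4 (RESPONSE TO LOW SULFUR) encode small proteins found only in plants, which bind many partner proteins and are induced by lack of sulfur and by other stresses. LSU1 (AT3G49580) had 2.01 FPKM in wn1, against 54.9 FPKM in wild type, so that the wn1 level was 3.66% of the wild-type level and the log2 difference was -4.22. LSU2 (AT5G24660) had 2.52 FPKM in wn1 and 27.3 FPKM in wild type, a log2 difference of -3.01. For LSU3 (AT3G49570) the values were 2.13 FPKM in wn1 and 20.1 FPKM in wild type, a log2 difference of -2.75. These 3 genes lay close together in wn1, whereas in wild type LSU1 stood above LSU2 and LSU2 above LSU3.

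LSU4 (AT5G24655) was the weakest of the family in both libraries, with 0.694 FPKM in wn1 and 1.69 FPKM in wild type. Its log2 difference of -0.67 lay within 2-fold on the scale used here, although the wn1 level was 41.0% of the wild-type level. About 8 fragments in wn1 and 17 in wild type stood behind these values, and the exact 95% interval of that percentage, which covers counting error only, ran from 14.2% to 92.6%. Added up, the family had 7.36 FPKM in wn1, against 104 FPKM in wild type. LSU1 made up 27.3% of the family's FPKM in wn1 and 52.8% in wild type, while LSU4 made up 9.43% in wn1 and 1.63% in wild type. Thus in these 2 libraries the family was not only lower in wn1 but also had a flatter composition. The wn1 values of LSU1, LSU2 and LSU3 rested on about 23, 33 and 25 fragments, so these shares and the order of the 3 genes in wn1 are imprecise.

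The LSU genes stand in 2 tandem pairs on the minus strand, per the RefSeq annotation of TAIR10.1. LSU3 and LSU1 lie on chromosome 3 with 1760 bases between them, and LSU4 and LSU2 on chromosome 5 with 1914 bases between them. Within each pair the levels lay closer together in wn1, where LSU1 stood at 0.94 times LSU3 in wn1, against 2.73 times in wild type, and LSU2 stood at 3.64 times LSU4, against 16.1 times in wild type. Related genes can share reads, and the sources used here do not say how the counting divided them. The coding sequences were 83.8% identical between LSU1 and LSU3 and 88.9% identical between LSU2 and LSU4. The longest run of identical bases within each pair is shown here, in capitals throughout, because its length bears on how far fragments of the 2 genes can be told apart.
LSU1 and LSU3: CAAATCTCTCGTCTCTCTTCTTC
LSU2 and LSU4: GAATCTTTAGACCAGGCTCGTGATTACCAC
These runs are 23 and 30 bases long, and no longer run was shared within either pair over the whole annotated transcripts.

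SDI1 and SDI2 (SULFUR DEFICIENCY INDUCED) encode tetratricopeptide repeat proteins that repress the synthesis of aliphatic glucosinolates when sulfur is short. SDI1 (AT5G48850) had 1.19 FPKM in wn1, against 46.8 FPKM in wild type, a log2 difference of -4.45. SDI2 (AT1G04770) had 4.69 FPKM in wn1 and 28.5 FPKM in wild type, a log2 difference of -2.37. In wn1 the order of the pair was reversed, with SDI1 at 0.253 times SDI2, against 1.64 times SDI2 in wild type. Their coding sequences were 68.8% identical, and the longest identical run was 17 bases. The annotated end of SDI2 overlaps VAMP726 (AT1G04760), a membrane trafficking gene on the other strand, over 431 bases. VAMP726 had 3.24 FPKM in wn1 and 1.75 FPKM in wild type, and without a stated strand the reads of the overlap cannot be separated.

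BGLU28 and BGLU30 encode beta-glucosidases that release sulfur from glucosinolates during sulfur deficiency. BGLU28 (AT2G44460) had 0.155 FPKM in wn1, against 26.7 FPKM in wild type, a log2 difference of -4.58. This was the most negative of the 10 markers on the deposited scale, while with columns brought to the same total SDI1 at -5.20 lay below BGLU28 at -5.13. The wn1 level was 0.579% of the wild-type level, with an exact 95% counting interval from 0.178% to 1.29%, and rested on about 5 fragments in wn1 against about 733 in wild type. BGLU30 (AT3G60140), which is also known as DIN2 for its induction in darkness, had 7.51 FPKM in wn1 and 7.27 FPKM in wild type. The log2 difference of BGLU30 was 0.04, and -0.85 with columns brought to the same total, where the median of all genes was also -0.85. On the deposited scale the counting interval of its wn1 level ran from 86.4% to 124% of wild type. By level among the 10 markers BGLU30 thus stood behind SHM7 alone in wn1, but above LSU4 alone in wild type.

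GGCT2;1 and SHM7 act on glutathione and on one-carbon metabolism. GGCT2;1 (AT5G26220), a gamma-glutamyl cyclotransferase that breaks glutathione down, had 0.449 FPKM in wn1 and 12.5 FPKM in wild type, a log2 difference of -3.22. About 8 fragments stood behind the wn1 value. SHM7 (AT1G36370), a relative of serine hydroxymethyltransferases that is needed for the supply of S-adenosylmethionine, had 15.1 FPKM in wn1, against 103 FPKM in wild type, a log2 difference of -2.69. SHM7 had the highest level of the 10 markers in both libraries and made up 41.5% of their summed FPKM in wn1 and 31.4% in wild type.

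**Figure D2:**
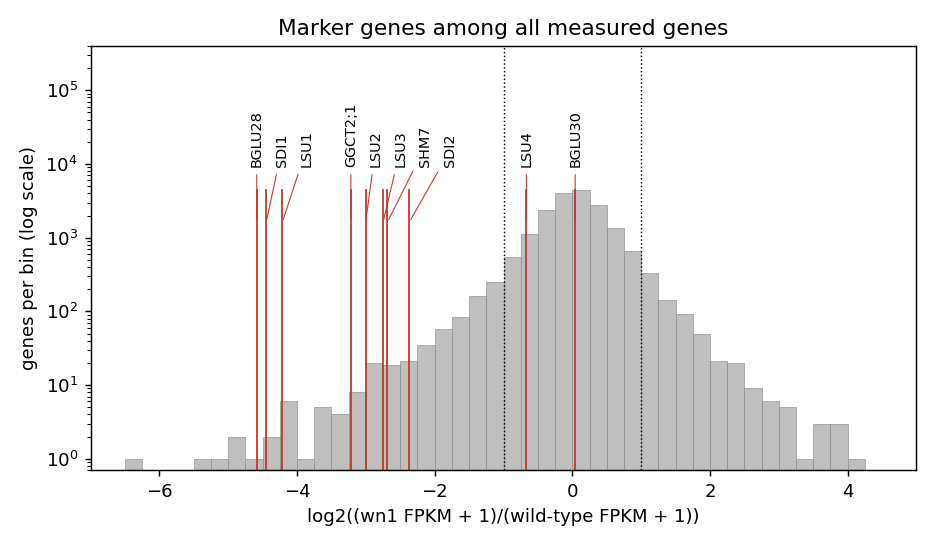
Histogram of log2 differences (wn1 minus wild type) of the 18788 measured genes, with the number of genes per bin on a log axis. Red lines stand at the 10 markers and dotted lines at 2-fold. In the drawing 1 gene lies off the left edge and others lie off the right edge. The transfer RNA row lies beyond the last bin and is not counted in any bar. LSU4 at -0.67 and BGLU30 at 0.04 lie within 2-fold, and the other 8 lie between -4.58 and -2.37.

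Ordered by log2 difference over all measured genes, BGLU28 ranked 7 from the lowest, SDI1 ranked 8 and LSU1 ranked 10, and all 8 lower markers were among the 100 lowest. LSU4 ranked 1510 and BGLU30 ranked 9616. The nearest genes to SDI1 by Euclidean distance of log2(FPKM + 1) over the 2 libraries were AOC2 (AT3G25770), an allene oxide cyclase of jasmonate synthesis, bHLH38 (AT3G56970), an iron deficiency transcription factor, and LSU1, at distances of 0.41, 0.41 and 0.51. AOC2 had 1.89 FPKM in wn1 and 47.1 FPKM in wild type, and bHLH38 had 0.770 FPKM in wn1 and 57.0 FPKM in wild type. Nearest to BGLU28 were AT3G14431, AT4G13575 and AT2G16367, at distances of 0.22, 0.27 and 0.53. With 2 libraries such a distance says only that the 2 values are alike.

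Relatives of the markers were set beside them as a description, since the markers were chosen for their differences. Of the other serine hydroxymethyltransferase genes, all 6 lay within 2-fold, with a median log2 difference of -0.37. With columns brought to the same total 5 of the 6 were at least 2-fold lower and the median was -1.31. On that scale 6864 of all 18788 measured genes were at least 2-fold lower, with a median of -0.85. Among the 6 genes SHM1 (AT4G37930), the mitochondrial enzyme of photorespiration, had 577 FPKM in wn1 and 1081 FPKM in wild type. GGCT2;2 (AT4G31290), the closest relative of GGCT2;1 by coding sequence of those compared at 73.0% identity, had 109 FPKM in wn1, against 56.1 FPKM in wild type, a log2 difference of 0.94. GGCT2;3 (AT1G44790) had 20.8 FPKM in wn1 and 16.1 FPKM in wild type. BGLU29 (AT2G44470), which follows BGLU28 on chromosome 2, was listed at 0 in wn1 and at 0.0939 FPKM in wild type, and BGLU31 and BGLU32 were listed at 0 in both libraries. The coding sequences of BGLU28 and BGLU29 were 82.4% identical, and their longest identical run is shown because it is the longest of the pairs compared.
BGLU28 and BGLU29: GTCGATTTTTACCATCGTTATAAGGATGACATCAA
BGLU26 (AT2G44490), also called PEN2, a glucosidase of pathogen defence, had 34.1 FPKM in wn1 and 38.2 FPKM in wild type. The log2 difference of BGLU26 was -0.16, and -1.14 with columns brought to the same total. The SDI relatives MS5 and AT5G44330 were listed at 0 in both libraries, and AT3G51280 had 9.79 FPKM in wn1 and 6.05 FPKM in wild type. With both columns brought to the same total, the log2 differences of GGCT2;2, GGCT2;3 and AT3G51280 were -0.05, -0.61 and -0.28.

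**Figure D3:**
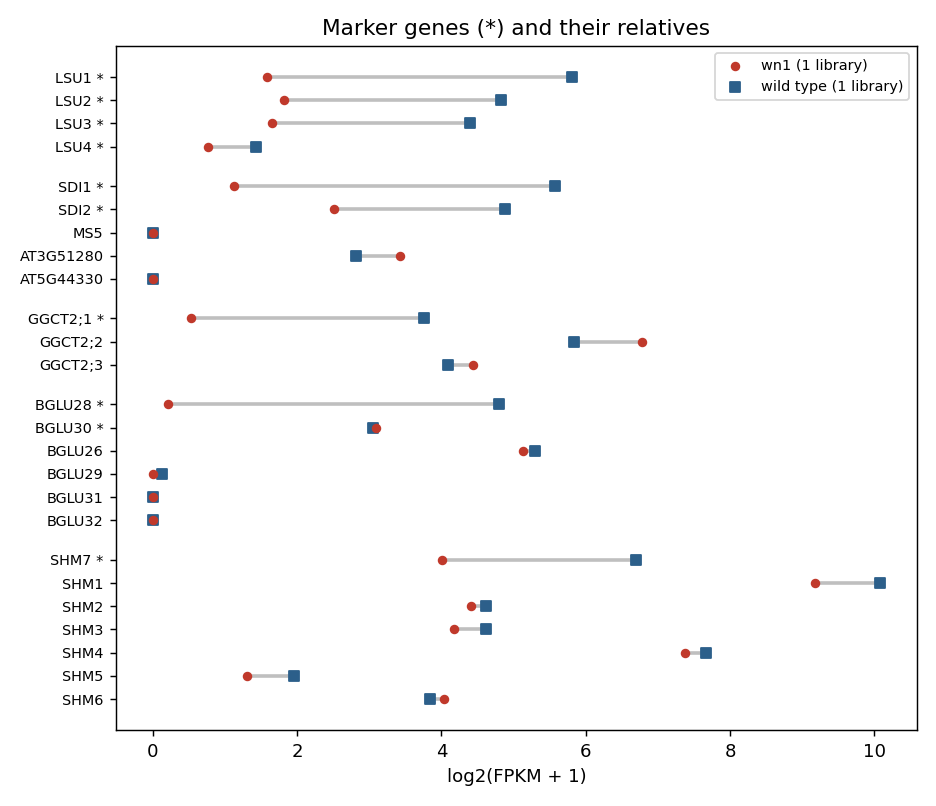
Log2(FPKM + 1) of the markers (asterisks) and their relatives by family, with a circle for the wn1 library and a square for the wild-type library. The gaps of LSU1, SDI1, GGCT2;1, BGLU28 and SHM7, genes chosen for their differences, are wide, and GGCT2;2 lies the other way round, at 109 FPKM in wn1 against 56.1 FPKM in wild type, although its log2 difference was -0.05 with columns brought to the same total.

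Genes on either side of the markers in identifier order were set beside them. Leaving out markers that neighbour each other, there were 16 such genes, of which 12 were measured. None of these was at least 2-fold lower in wn1 and 1 was at least 2-fold higher, with a median log2 difference of 0.02. Over all measured genes the shares were 3.65% lower and 3.67% higher. On a common total 5 of the 12 were at least 2-fold lower and none at least 2-fold higher. Of all 18788 measured genes, 6864 were at least 2-fold lower on that scale. TAD3 (AT5G24670), a transfer RNA deaminase gene beside LSU2, was the gene at least 2-fold higher, with 47.8 FPKM in wn1 and 21.5 FPKM in wild type. The other neighbour of that tandem pair, AT5G24650, had 47.1 FPKM in wn1 and 43.1 FPKM in wild type.

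Upstream sequences of 250 bases before the annotated start were read from TAIR10.1 for the 10 markers. Each window was searched on both strands for 3 motifs, namely the core of the sulfur-responsive element (GAGAC), a core bound by factors of the EIN3 family, to which EIL3 belongs (ATGTA), and the G-box (CACGTG). The sulfur-responsive core was found in 5 of the 10 windows, those of LSU4, SDI1, BGLU28, BGLU30 and GGCT2;1, against 25.8% of 27443 windows of protein-coding nuclear genes. The EIN3-type core was found in 7 of the 10, against 52.0% of all windows, and the G-box in LSU3 alone, against 6.49% of all windows. None of the 3 motifs was found in the windows of LSU1, SDI2 and SHM7, whose log2 differences were -4.22, -2.37 and -2.69. A match is a description of the letters and not a site, and these windows leave out what lies further upstream. Shown here are the windows of SDI1 and BGLU28, which were far lower in wn1, of BGLU30, which was not, and of the tandem pair LSU2 and LSU4, with every motif in capitals. They lie at chr5:19807854-19808103 (minus strand), chr2:18346056-18346305 (plus strand), chr3:22216290-22216539 (plus strand), chr5:8444102-8444351 (minus strand) and chr5:8441365-8441614 (minus strand) of TAIR10.1, and each is written along the strand of its gene.
SDI1: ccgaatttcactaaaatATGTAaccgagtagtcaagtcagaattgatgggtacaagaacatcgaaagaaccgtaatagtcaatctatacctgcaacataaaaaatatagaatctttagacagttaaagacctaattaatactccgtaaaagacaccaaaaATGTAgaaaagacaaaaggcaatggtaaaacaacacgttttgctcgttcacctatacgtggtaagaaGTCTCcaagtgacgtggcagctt
BGLU28: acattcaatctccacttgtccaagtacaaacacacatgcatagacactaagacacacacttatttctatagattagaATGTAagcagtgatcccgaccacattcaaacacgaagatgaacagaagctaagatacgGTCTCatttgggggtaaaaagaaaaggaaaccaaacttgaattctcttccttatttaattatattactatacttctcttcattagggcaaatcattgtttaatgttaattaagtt
BGLU30: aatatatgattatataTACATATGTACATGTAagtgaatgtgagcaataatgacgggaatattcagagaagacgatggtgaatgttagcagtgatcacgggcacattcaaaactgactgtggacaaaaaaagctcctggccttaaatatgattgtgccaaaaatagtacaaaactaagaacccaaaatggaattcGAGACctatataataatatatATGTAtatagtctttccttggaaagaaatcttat
LSU2: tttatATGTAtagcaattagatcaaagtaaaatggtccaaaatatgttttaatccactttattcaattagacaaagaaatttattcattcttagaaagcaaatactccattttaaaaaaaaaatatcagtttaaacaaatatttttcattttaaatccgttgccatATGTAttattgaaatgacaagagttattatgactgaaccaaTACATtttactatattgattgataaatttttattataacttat
LSU4: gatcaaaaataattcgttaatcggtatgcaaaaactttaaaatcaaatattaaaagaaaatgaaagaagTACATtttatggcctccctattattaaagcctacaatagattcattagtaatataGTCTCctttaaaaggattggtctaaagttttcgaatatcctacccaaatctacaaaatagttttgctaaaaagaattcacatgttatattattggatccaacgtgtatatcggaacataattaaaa
The windows of BGLU28 and BGLU30 both hold the sulfur-responsive core and the EIN3-type core. In BGLU30 several matches to the EIN3-type core overlap near the far end of the window. The sulfur-responsive core is in the window of LSU4 and not in that of LSU2. Whether any of these motifs bears on the differences between the libraries was not tested.

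Other genes of sulfur metabolism were counted in lists. Of 12 sulfate transporter genes, all measured, 5 were at least 2-fold lower in wn1, 1 was at least 2-fold higher and 6 lay within 2-fold, with a median log2 difference of -0.82. With columns brought to the same total 8 transporter genes were at least 2-fold lower, none was at least 2-fold higher and the median was -1.72. Among all 18788 measured genes, 3.65% were at least 2-fold lower on the deposited scale and 3.67% at least 2-fold higher. The same total gave 6864 of them at least 2-fold lower and 99 higher, with a median of -0.85. SULTR4;2 (AT3G12520) and SULTR4;1 (AT5G13550), which export sulfate from the vacuole, had log2 differences of -1.92 and -1.51. SULTR4;1 had 10.2 FPKM in wn1 and 31.0 FPKM in wild type. SULTR1;1 (AT4G08620), a root uptake transporter that is itself induced by sulfur deficiency, had 1.31 FPKM in wn1 and 1.56 FPKM in wild type. SULTR1;3 (AT1G22150), a phloem transporter, had 0.0916 FPKM in wn1 and 2.64 FPKM in wild type.

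Of 18 genes of sulfate assimilation and cysteine synthesis, all measured, 7 were at least 2-fold lower in wn1, 1 was at least 2-fold higher and 10 lay within 2-fold, with a median of -0.68. On a common total 13 were at least 2-fold lower, none was at least 2-fold higher and the median was -1.67. For all 18788 measured genes the shares on the deposited scale were 3.65% lower and 3.67% higher. A common total gave 6864 lower and 99 higher genes, with a median of -0.85. APR1 (AT4G04610) and APR3 (AT4G21990) encode reductases of activated sulfate, the main control step of the pathway. APR1 had 9.10 FPKM in wn1, against 116 FPKM in wild type, a log2 difference of -3.54. APR3, which is induced with the markers under sulfur deficiency, had 17.8 FPKM in wn1 and 103 FPKM in wild type, a log2 difference of -2.46. SERAT3;2 (AT4G35640), a serine acetyltransferase that makes O-acetylserine, had 1.104 FPKM in wn1 and 11.1 FPKM in wild type. OASA1 (AT4G14880), the cytosolic enzyme that makes cysteine and the gene of this list with the top mean level, had 356 FPKM in wn1 and 248 FPKM in wild type. The log2 difference of OASA1 was 0.52, and -0.49 with columns brought to the same total.

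Regulators of these pathways were also listed. EIL3 (AT1G73730) had 13.7 FPKM in wn1 and 11.3 FPKM in wild type. The log2 difference of EIL3 was 0.26, and -0.67 with columns brought to the same total. Of 10 listed regulators 7 were measured, of which none was at least 2-fold lower and 1 was at least 2-fold higher. Their median was 0.21, and -0.78 with columns brought to the same total, where 1 passed 2-fold in each direction. HY5 (AT5G11260), a light-signalling factor known to act on the APR genes, was the one, with 109 FPKM in wn1 and 26.5 FPKM in wild type. MYB28 (AT5G61420), the activator of aliphatic glucosinolate synthesis with which SDI1 interacts, had 7.92 FPKM in wn1 and 8.30 FPKM in wild type. Of 10 genes of aliphatic glucosinolate synthesis 7 were measured, of which 1 was at least 2-fold lower and none at least 2-fold higher, and their median was -0.22. On a common total 5 of these 7 were at least 2-fold lower, with a median of -1.04. Over all 18788 measured genes, 3.65% were at least 2-fold lower and 3.67% higher on the deposited scale. A common total made 6864 of them lower and 99 higher, with a median of -0.85. The 1 glucosinolate gene at least 2-fold lower on the deposited scale, CYP83A1 (AT4G13770), had 0.212 FPKM in wn1 and 1.85 FPKM in wild type. UGT74C1 (AT2G31790), the highest in mean FPKM, had 53.6 FPKM in wn1 and 47.0 FPKM in wild type. The log2 difference of UGT74C1 was 0.19, and -0.80 with columns brought to the same total.

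All 7 genes of glutathione synthesis and breakdown other than GGCT2;1 lay within 2-fold. Their median was 0.35, and -0.61 with columns brought to the same total, where 2 were at least 2-fold lower. On that scale 6864 of all 18788 measured genes were at least 2-fold lower, with a median of -0.85. GSH1 (AT4G23100), which makes the first intermediate of glutathione, had 116 FPKM in wn1 and 126 FPKM in wild type. The dark-inducible genes, to which BGLU30 also belongs, went the other way. Beside BGLU30, 7 were listed and 6 measured, and all 6 were at least 2-fold higher in wn1 with a median of 1.73. The median became 0.80 with columns brought to the same total, where 2 of the 6 were at least 2-fold higher. At least 2-fold higher were 3.67% of all measured genes on the deposited scale and 99 of 18788 on a common total. DIN6 (AT3G47340), the asparagine synthetase ASN1, had 267 FPKM in wn1 and 21.0 FPKM in wild type, while BGLU30 was within 2-fold in both scalings.

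**Figure D4:**
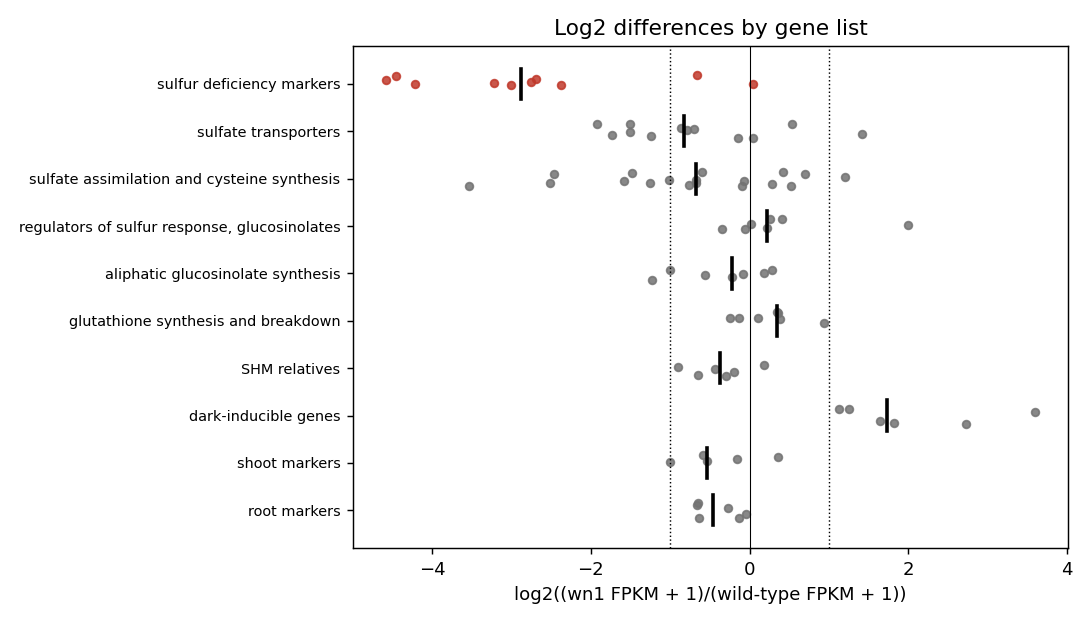
Log2 differences (wn1 minus wild type) of the measured genes in each list, 1 point per gene, with black bars at the medians and dotted lines at 2-fold. The markers have a median of -2.88, sulfate transporters of -0.82, assimilation genes of -0.68 and dark-inducible genes of 1.73; lists with fewer than 3 measured genes are left out.

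The labelled tissue, shoot, was compared with markers of shoot and root. Despite that label 6 of the 8 root markers were measured, and the share of root tissue in the libraries was not tested. All 5 shoot markers, among them RBCS1A and GLDP1, had between 1021 and 13647 FPKM in wn1 and between 1540 and 19784 FPKM in wild type. On the deposited scale 4 of the 5 shoot markers had negative log2 differences. The log2 difference of the other 1 was 0.35, and -0.66 with columns brought to the same total. Of 8 root markers none was listed at 0, with between 0.127 and 22.7 FPKM in wn1 and between 0.426 and 35.9 FPKM in wild type. EXPA7 (AT1G12560), a root hair gene, had 22.7 FPKM in wn1 and 35.9 FPKM in wild type, and CASP1 (AT2G36100), which marks the root endodermis, had 20.6 FPKM in wn1 and 25.1 FPKM in wild type. The 8 root markers together had 80.1 FPKM in wn1, against 115 FPKM in wild type, and all 6 that were measured had negative log2 differences, between -0.66 and -0.04. In a bulk sample fewer cells of a type and less RNA per cell cannot be told apart, and the part of root tissue in the lower levels of the markers was not tested. Root and shoot marker lists each had every measured member within 2-fold, and their medians were -0.45 and -0.54. With columns brought to the same total the medians were -1.40 and -1.55, and 4 of the 6 measured root markers and 4 of the 5 shoot markers were at least 2-fold lower. Of all 18788 measured genes, 6864 were at least 2-fold lower on that scale.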

How the data were processed

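Shoots of 2 genotypes, wn1 and wild type, were measured with 1 library each. The authors deposited a table of FPKM per gene. The submitters' processing notes name Bowtie and TAIR10, and the sources used here give no counter, version, strand setting or filter. Columns were matched to samples by name (WN and WT), and 2 further FPKM columns were not used.

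Log2 differences used a pseudocount of 1, and genes averaging 1 FPKM or more were kept. Depth was estimated as the fragment total that made FPKM times transcript length most often whole within 0.1, over genes of at least 1000 bases and at most 0.15 FPKM. This held for 52.0% of 552 genes in wn1 and 56.9% of 534 genes in wild type, so fragment numbers and intervals (exact binomial, 95%) are approximate and cover counting error only. Transcripts, positions and sequences come from RefSeq for TAIR10.1; the table itself holds no coordinates.

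The markers and lists were chosen with earlier results of these data known. Named were all markers, per list the 3 genes with the largest absolute difference and the highest in mean FPKM, relatives, neighbours and nearest genes; EIL3, MYB28, SULTR1;1, CASP1 and the genes under other observations were chosen after their values were seen, and not every gene so selected is named. Python 3.11.15, pandas 2.3.3 and scipy 1.17.1 were used, and the steps were tested on simulated data.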

Additional observations from a re-analysis of the deposited data

How the results depend on the processing

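With 1 library per genotype no difference between the plants of a genotype could be measured. No paired analysis was possible because there is 1 library per genotype. Tried instead were a pseudocount of 0.1, a minimum of 5 for the mean FPKM, no minimum, centring on the median, division by column sums of all, of non-organelle or of protein-coding genes, and a 4-fold threshold. The 8 lower markers stayed at or below -2.26 on the log2 scale under each alternative that gives a log2 difference, and all 8 passed the 4-fold threshold. LSU4 was a ninth marker at least 2-fold lower with a pseudocount of 0.1 and after division by the sums of all genes, and it drops out under the minimum of 5. Division by the sums of all genes gave 99 higher and 6864 lower genes at 2-fold, against 690 and 685 as reported, because 1 transfer RNA row held 54.1% of the wn1 sum. The median of all genes then moved to -0.85 and that of the markers to -3.74, which is -2.89 relative to all genes, against -2.91 as reported. At 4-fold, 72 genes were higher and 128 lower. Division by the sums of protein-coding genes moved the median of all genes to 0.14. Of 69 alternative values for single markers, 58 lay within 1.5-fold of the reported value. The few fragments of BGLU28, GGCT2;1 and LSU4 in wn1 limit how precisely their levels are known.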

Other observations

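Genes known as targets of miR395, a microRNA induced by sulfur deficiency, differed in direction on the deposited scale. The ATP sulfurylase gene APS1 (AT3G22890) had 100.3 FPKM in wn1 and 302 FPKM in wild type, and APS3 (AT4G14680) had 3.93 FPKM in wn1 and 10.8 FPKM in wild type. APS4 (AT5G43780) was higher in wn1, with 89.0 FPKM, against 37.9 FPKM in wild type, a log2 difference of 1.21 that was 0.22 with columns brought to the same total. The transporter gene SULTR2;1 (AT5G10180) had 11.6 FPKM in wn1 and 22.0 FPKM in wild type. The 1 sulfate transporter gene at least 2-fold higher in wn1 was SULTR3;2 (AT4G02700), with 7.31 FPKM in wn1 and 2.12 FPKM in wild type; its log2 difference of 1.41 was 0.62 with columns brought to the same total, so that it no longer passed 2-fold.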
